A study of Homo sapiens with 12 samples.

Results

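The genes described here encode the core proteins of the human microRNA pathway: DROSHA and DGCR8, DICER1, the 4 Argonautes AGO1 to AGO4, and the TNRC6 adaptors. They were found by the Ensembl identifiers of 10 symbols in a table of estimated counts, and 9 of the 10 had a row, out of 63541 gene rows in all. TNRC6A was not analysed here. All 9 passed the filter on low counts. HEK293T, a line derived from human embryonic kidney and carrying the SV40 large T antigen, was harvested 48 h after transfection with 12.5 nM siRNA. The 12 libraries fell into 4 groups with 3 replicates each. One group received scramble siRNA, and the others received si-snaR-A#1 or its counterparts si-snaR-A#2 and si-snaR-A#3, each directed at the 3′-proximal end of snaR-A, a short noncoding RNA made by RNA polymerase III. Every group, the control included, received an siRNA, and siRNAs are themselves loaded into Argonaute proteins. No untransfected group was analysed here. The comparison asks how the transcripts of this machinery differed between each snaR-A siRNA and scramble, and between siRNAs that share a target.

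MicroRNAs are cut from long primary transcripts in the nucleus by the Microprocessor, in which DROSHA is the nuclease and DGCR8 the partner that binds the RNA. The hairpin is exported and cut again by DICER1, and one strand is loaded into an Argonaute. The loaded Argonaute pairs with messenger RNAs through the seed of the small RNA, and a TNRC6 protein then brings in the deadenylation and decapping enzymes. AGO2 is the Argonaute best known for cleaving a fully matched target, which is how an siRNA acts.

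The libraries held between 120.4 and 180.1 M estimated counts, and the lowest level of any member was 26.6 CPM (counts scaled to the size of the library) for TNRC6C, so no member was near the filter. The study describes its sequencing replicates as biological and handled on 1 day, and the labels do not say whether they were separate cultures, so the p-values measure the spread between samples of 1 day. Markers of the line were present: PAX2 ranged from 4.57 to 7.36 CPM and NEFM from 244.4 to 462.4 CPM over the 12 libraries. Of the blood markers, HBB was at 0 in every library and the 4 markers summed to between 0.0498 and 0.206 CPM. In the fibroblast list, COL1A2 reached at most 0.0234 CPM while COL1A1 lay between 13.0 and 27.0 CPM. The kidney tubule markers UMOD and AQP2 were at 0 and LRP2 lay between 20.4 and 46.6 CPM. The 5 fibroblast markers summed to between 31.0 and 38.2 CPM and their part in the results was not tested. No annotated row of the table carried a symbol beginning with SNAR, so the level of the targeted RNA was not analysed here.

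Under si-snaR-A#1, DICER1 and AGO4 were lower than with scramble and AGO2 was higher, while the other siRNAs left these 3 genes within 0.25 of scramble on the log2 scale. DICER1 fell to 0.442 of its scramble level and AGO4 to 0.574, and AGO2 rose 1.43-fold. In all, 7 of the 9 genes passed an adjusted p of 0.05 in edgeR's quasi-likelihood test under si-snaR-A#1 (called, in what follows), 1 under si-snaR-A#2 and 2 under si-snaR-A#3. No member was called with a shared direction by every siRNA, as 1761 of the 21999 genes tested were (8.0%). The 3 contrasts share the scramble libraries.

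These counts stand against a broad response. Under si-snaR-A#1, 45.2% of all genes tested were called, 21.9% higher and 23.3% lower; of the 9 members 2 were higher (AGO2, DROSHA) and 5 lower (DICER1, AGO4, TNRC6B, AGO3, TNRC6C). The median log2 fold change of the members was -0.32, against -0.02 over all genes. Under si-snaR-A#2, 25.8% of all genes were called and 13.7% were higher, and AGO1 was the 1 member, higher. Under si-snaR-A#3, 29.4% were called and 16.5% were higher, and the 2 members, AGO3 and DROSHA, were higher. The member medians were 0.09 and 0.10, against -0.03 over all genes in both contrasts. The genes tested include many at far lower levels than the members. With the filter set at a mean of 1 CPM, 9037 of 14538 genes were called under si-snaR-A#1. Of the same 14538, 5855 were called under si-snaR-A#2 and 6487 under si-snaR-A#3. Under upper quartile scaling the share of called genes that were higher moved from 53.2% to 40.5% under si-snaR-A#2 and from 55.9% to 42.7% under si-snaR-A#3. A test of any difference among the 4 groups called 8 of the 9 members, all but TNRC6B (adjusted p = 0.0867), against 61% of all genes.

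**Figure D1:**
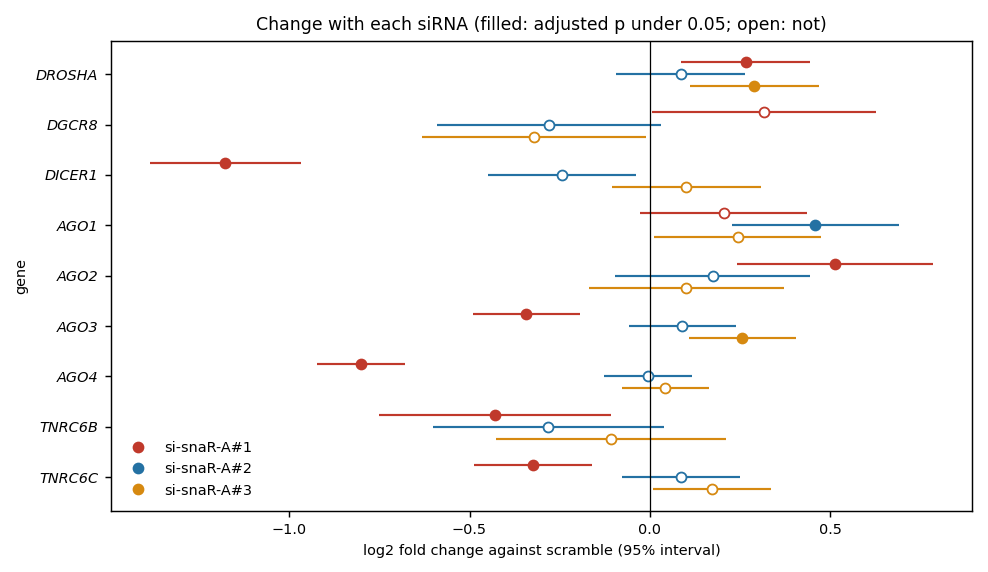
Log2 fold change of each of the 9 genes against scramble (x axis) with each siRNA, with 95% intervals; filled points passed an adjusted p of 0.05. The points for si-snaR-A#1 reach -1.18 for DICER1 and -0.80 for AGO4, while those of the other siRNAs lie between -0.32 and 0.46.

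The separation of the libraries gave another order than the calls, with si-snaR-A#2 next to si-snaR-A#1. Under si-snaR-A#1, the 3 libraries lay clear of the 3 scramble libraries for 7 of 9 members, against 52.9% of all genes. Under si-snaR-A#2 they did so for 6 members, against 43.3%, and under si-snaR-A#3 for 3, against 43.4%. In these shares the siRNA libraries of a gene sit all above or all below scramble, whatever the size of the difference. The shares cover all genes tested, many at far lower levels than the members. They were not computed for genes at like levels.

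**Figure D2:**
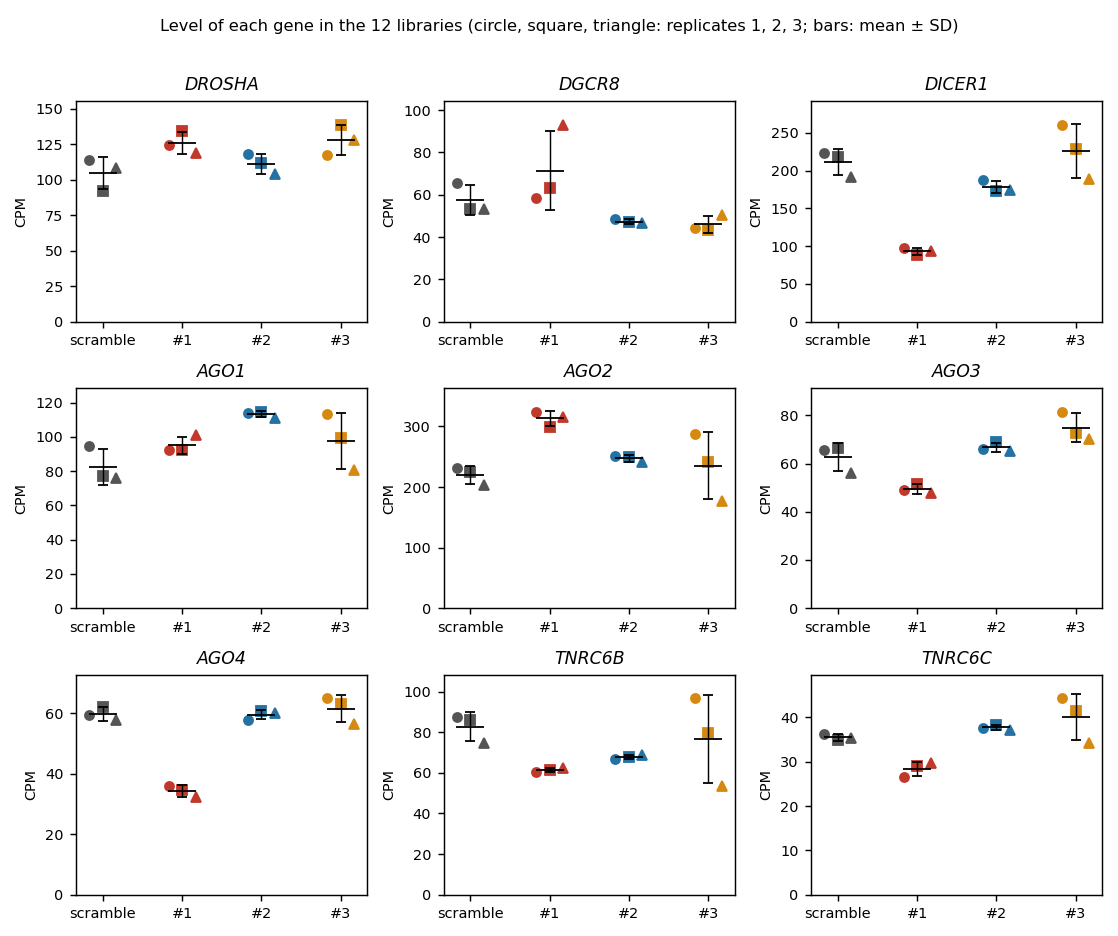
CPM (y axis, from 0) of each gene in each of the 12 libraries by group (x axis), with circle, square and triangle for replicates 1, 2 and 3 and bars for mean ± SD. The si-snaR-A#1 libraries of DICER1 (88.7 to 97.9 CPM) and AGO4 (32.2 to 35.9 CPM) lie below every other library.

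The Microprocessor genes come first in the pathway. DROSHA (chromosome 5, 31400494 to 31532196, minus strand, GRCh38), the nuclease, was at 113.7, 91.9 and 108.4 CPM in the scramble libraries and at 124.4, 134.3 and 118.7 CPM under si-snaR-A#1. It was at 117.9, 111.8 and 103.7 CPM under si-snaR-A#2 and at 117.4, 138.5 and 127.9 CPM under si-snaR-A#3. The libraries of si-snaR-A#1, like those of si-snaR-A#3, lay above all scramble libraries, and those of si-snaR-A#2 overlapped them. The log2 fold changes were 0.27 ± 0.08 (SE; adjusted p = 0.0187) and 0.29 ± 0.08 (adjusted p = 0.0185) for these siRNAs, and 0.09 ± 0.08 (adjusted p = 0.501) for si-snaR-A#2. Both calls were lost without scramble replicate 2, the lowest control (adjusted p = 0.0867 and 0.0730). The first was also lost without si-snaR-A#1 replicate 2 (0.0693) and the second without si-snaR-A#3 replicate 2 (0.0862).

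DGCR8 (chromosome 22, 20080221 to 20111877, plus strand), the RNA-binding partner of DROSHA, was at 65.6, 53.4 and 53.0 CPM with scramble and at 58.4, 63.0 and 93.0 CPM under si-snaR-A#1. It was at 48.4, 46.9 and 46.4 CPM under si-snaR-A#2 and at 44.2, 43.2 and 50.4 CPM under si-snaR-A#3. Replicate 3 of si-snaR-A#1 stood apart from every other library, and the libraries of the other siRNAs all lay under the scramble libraries. By the quasi-likelihood test none of the 3 contrasts with scramble was called: the log2 fold changes were 0.32 ± 0.14 (adjusted p = 0.0900), -0.28 ± 0.14 (0.180) and -0.32 ± 0.14 (0.114). Leaving out si-snaR-A#1 replicate 3 brought the first to 0.081 (adjusted p = 0.485), and it was called without si-snaR-A#1 replicate 1, without scramble replicate 1 and with no filter on low counts. Without si-snaR-A#1 replicate 3, which also enters the shared estimate of the spread, the lower values of DGCR8 were called for si-snaR-A#2 (adjusted p = 0.0241) and for si-snaR-A#3 (0.00789). They were called as well by edgeR's exact test (0.00314 and 0.00694) and in fits of only the 2 groups compared (0.0186 and 0.0341), and for si-snaR-A#3 with no filter (0.0456). Between siRNAs, DGCR8 was called higher under si-snaR-A#1 than under si-snaR-A#2 by 0.60 ± 0.14 and than under si-snaR-A#3 by 0.64 ± 0.14. Without si-snaR-A#1 replicate 3 these were 0.34 and 0.40, with adjusted p = 0.00650 and 0.00244.

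DGCR8 messenger RNA is also known as a substrate of the enzyme it forms, since hairpins in its own exons can be cut by the Microprocessor. Their mature microRNAs are printed because they mark where the message carries these hairpins. By RefSeq on GRCh38 the first lies in an untranslated stretch of the canonical transcript (chr22:20085797-20085818) and the other 2 in its coding sequence (chr22:20086072-20086093 and chr22:20086112-20086129), all on the plus strand, with the seed (bases 2 to 8) in capitals.
hsa-miR-3618: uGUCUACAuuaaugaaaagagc
hsa-miR-1306-5p: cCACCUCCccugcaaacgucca
hsa-miR-1306-3p: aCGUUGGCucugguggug
The rows of both hairpin genes, MIR3618 and MIR1306, held 0 counts in every library. The 3 seeds differ from one another. The libraries were enriched for poly(A)+ RNA, so neither hairpins nor mature microRNAs were measured.

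DICER1 (chromosome 14, 95086228 to 95158010, minus strand), which cuts the exported hairpin, held the largest change among the members. It was at 223.3, 218.0 and 191.2 CPM with scramble and at 97.9, 88.7 and 93.2 CPM under si-snaR-A#1. It was at 187.5, 173.3 and 173.6 CPM under si-snaR-A#2 and at 260.4, 228.6 and 189.4 CPM under si-snaR-A#3. Every si-snaR-A#1 library was under 100 CPM and every other library at 173.3 CPM or more. The libraries of si-snaR-A#2 were all lower than scramble, the nearest pair being 187.5 and 191.2 CPM, and those of si-snaR-A#3 spanned the scramble range. On the log2 scale DICER1 differed by -1.18 ± 0.10 (adjusted p = 6.97e-07) under si-snaR-A#1, -0.24 ± 0.09 (0.0807) under si-snaR-A#2 and 0.10 ± 0.09 (0.463) under si-snaR-A#3. The contrast of si-snaR-A#2 with scramble was called in 9 of 21 alternative settings, among them DESeq2 (adjusted p = 0.0487). DICER1 was lower under si-snaR-A#1 than under si-snaR-A#2 by a log2 difference of -0.93 ± 0.10 and than under si-snaR-A#3 by -1.28 ± 0.10. It was also the 1 member called in si-snaR-A#2 against si-snaR-A#3, at -0.34 ± 0.09 (adjusted p = 0.0270), where 15.6% of all genes were called and 9.03% were lower. That call was lost in 5 of 21 settings, among them without si-snaR-A#2 replicate 2 or 3 and without si-snaR-A#3 replicate 1 or 2, with an adjusted p of up to 0.102.

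The antisense transcript DICER1-AS1 shares 80 bases with DICER1 exons and was at 8.65 CPM with scramble and 6.95 CPM under si-snaR-A#1, a change of -0.32 ± 0.13 (adjusted p = 0.0708). Whether reads were assigned by strand is not given in the sources used here, so reads in those bases cannot be told apart. They cover 0.361% of the DICER1 exon bases.

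Of the Argonautes, AGO4, AGO1 and AGO3 lie head to tail on the plus strand of chromosome 1 within 264 kb (35808016 to 36072500), with gaps of 11917 bases between AGO4 and AGO1 and of 185 bases between AGO1 and AGO3. AGO2 lies alone on chromosome 8. The 3 neighbours on chromosome 1 did not move together. Under si-snaR-A#1, AGO4 and AGO3 were called lower, and AGO1 was at 0.20 and not called by the quasi-likelihood test.

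AGO4 (35808016 to 35857890), an Argonaute without known slicer activity, was at 59.3, 62.2 and 57.7 CPM with scramble and at 35.9, 34.6 and 32.2 CPM under si-snaR-A#1. It was at 57.8, 60.7 and 60.1 CPM under si-snaR-A#2 and at 65.0, 63.0 and 56.6 CPM under si-snaR-A#3. The 3 si-snaR-A#1 libraries lay well under all 9 others, which overlapped one another. For AGO4 the log2 fold change was -0.80 ± 0.06 (adjusted p = 1.86e-07) under si-snaR-A#1, -0.01 ± 0.06 (0.961) under si-snaR-A#2 and 0.04 ± 0.06 (0.604) under si-snaR-A#3. The signs of the last 2 turn with the scaling. The 95% intervals were -0.13 to 0.12 under si-snaR-A#2 and -0.08 to 0.16 under si-snaR-A#3.

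AGO1 (35869808 to 35930532) was at 94.4, 77.2 and 75.8 CPM with scramble and at 92.1, 92.2 and 100.8 CPM under si-snaR-A#1. It was at 114.2, 114.8 and 111.1 CPM under si-snaR-A#2 and at 113.3, 99.1 and 80.5 CPM under si-snaR-A#3. The si-snaR-A#2 libraries lay above all scramble libraries, and the other 2 siRNAs overlapped scramble. In log2 terms AGO1 differed by 0.46 ± 0.11 (adjusted p = 0.00687) under si-snaR-A#2, 0.20 ± 0.11 (0.141) under si-snaR-A#1 and 0.24 ± 0.11 (0.108) under si-snaR-A#3. By the quasi-likelihood test AGO1 under si-snaR-A#2 was not called different from AGO1 under si-snaR-A#1 (log2 difference 0.25 lower under si-snaR-A#1, adjusted p = 0.0687) or under si-snaR-A#3 (0.22 higher under si-snaR-A#2, adjusted p = 0.214). The first of these differences was called in 8 of 21 alternative settings, among them DESeq2 (adjusted p = 0.0193) and edgeR's exact test (4.44e-05), and the second in 2 of 21, with a length trend removed (0.0106) and on leaving out si-snaR-A#3 replicate 1 (0.34, adjusted p = 0.0491). Against scramble, AGO1 under si-snaR-A#3 ranged from 0.12 to 0.37 on leaving out 1 library and was called without its replicate 3 (adjusted p = 0.00900), without scramble replicate 1 (0.0307), with no filter and by DESeq2 (0.0275). AGO1 under si-snaR-A#1 was at 0.31 and called without scramble replicate 1 (adjusted p = 0.0317), and it was called by the exact test (0.0235) and with the length trend removed (0.0409).

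AGO3 (35930718 to 36072500) was at 65.7, 66.4 and 55.9 CPM with scramble and at 49.2, 51.5 and 47.6 CPM under si-snaR-A#1. It was at 66.2, 68.7 and 65.2 CPM under si-snaR-A#2 and at 81.6, 72.8 and 70.3 CPM under si-snaR-A#3. AGO3 was the 1 member called in opposite directions by 2 siRNAs, all si-snaR-A#1 libraries lying under and all si-snaR-A#3 libraries over scramble. Such opposite calls were made for 8.41% of all genes. The log2 fold change was -0.34 ± 0.07 (adjusted p = 0.00123) under si-snaR-A#1, 0.26 ± 0.07 (0.0130) under si-snaR-A#3 and 0.09 ± 0.07 (0.385) under si-snaR-A#2. The call under si-snaR-A#3 was lost without its first replicate, at 0.19 (adjusted p = 0.0568). Set against si-snaR-A#3, AGO3 under si-snaR-A#1 differed by -0.60 ± 0.07 (adjusted p = 1.18e-05).

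AGO2 (chromosome 8, 140520156 to 140635633, minus strand), the Argonaute best known for slicer activity, was at 231.2, 224.0 and 202.8 CPM with scramble and at 324.7, 299.5 and 315.5 CPM under si-snaR-A#1. It was at 251.7, 249.5 and 241.1 CPM under si-snaR-A#2 and at 287.7, 241.4 and 176.6 CPM under si-snaR-A#3. The si-snaR-A#1 and the si-snaR-A#2 libraries lay above scramble, and those of si-snaR-A#3 held both a high and the lowest value of the series. The log2 fold change was 0.51 ± 0.13 (adjusted p = 0.00458) under si-snaR-A#1, 0.17 ± 0.12 (0.354) under si-snaR-A#2 and 0.10 ± 0.12 (0.587) under si-snaR-A#3. The value for si-snaR-A#2 was called in fits of 2 groups (adjusted p = 0.0166) and by edgeR's exact test (0.00215). Without si-snaR-A#3 replicate 3 that of si-snaR-A#3 was 0.27 and called (adjusted p = 0.0172), and without replicate 1 it was -0.07. AGO2 was called higher under si-snaR-A#1 than under si-snaR-A#2 (0.34 ± 0.12, adjusted p = 0.0402), a call lost in 10 of 21 settings. It was called higher than under si-snaR-A#3 as well (0.41 ± 0.13, adjusted p = 0.0153).

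Expressed per kilobase of the canonical transcript, so that genes can be set beside each other, the 4 Argonautes summed to 32.4 ± 2.1 CPM per kb (SD, n = 3) with scramble and 35.6 ± 0.9 under si-snaR-A#1. The sum was 36.8 ± 0.6 under si-snaR-A#2 and 35.5 ± 5.9 under si-snaR-A#3, so all 3 means were above that of scramble, with the si-snaR-A#3 libraries spanning it. The estimated counts may have been adjusted for transcript length before deposit, which these values do not settle, and sums, shares and orders per kb carry that limit. AGO2 made up 46.3% ± 0.3 of that sum with scramble, 60.2% ± 0.9 under si-snaR-A#1, 46.1% ± 0.6 under si-snaR-A#2 and 45.0% ± 3.4 under si-snaR-A#3. AGO4 made up 25.4% ± 1.3, 13.2% ± 0.8, 22.2% ± 0.6 and 24.1% ± 2.4 in the same order. In the si-snaR-A#1 libraries the share of AGO2 ranged from 59.3% to 61.1%, above that in each of the other 9 libraries. These shares are a description and were not tested. They are shares of messenger RNA and no protein was measured.

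**Figure D3:**
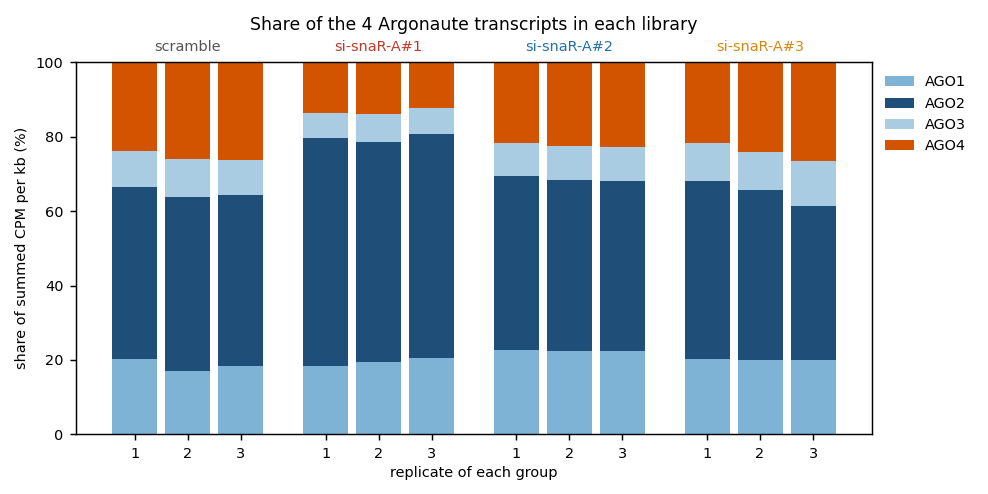
Share of each Argonaute in the summed CPM per kb of the 4 Argonaute transcripts (y axis, percent) in each of the 12 libraries (x axis, replicates by group). In the si-snaR-A#1 libraries AGO2 holds 60.2% on average, against 46.3% with scramble, and AGO4 13.2%, against 25.4%.

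The TNRC6 proteins bridge Argonaute to the deadenylases. TNRC6B (chromosome 22, 40044817 to 40335808, plus strand) was at 87.5, 86.0 and 74.6 CPM with scramble and at 60.2, 61.5 and 62.6 CPM under si-snaR-A#1. It was at 67.0, 68.0 and 69.0 CPM under si-snaR-A#2 and at 96.8, 79.4 and 53.8 CPM under si-snaR-A#3. Libraries of the first 2 siRNAs lay under scramble, while si-snaR-A#3 held both the highest and the lowest library. The log2 fold change was -0.43 ± 0.15 (adjusted p = 0.0311) under si-snaR-A#1, -0.28 ± 0.15 (0.192) under si-snaR-A#2 and -0.11 ± 0.15 (0.624) under si-snaR-A#3. The call under si-snaR-A#1 was lost without any 1 of its 3 libraries, and without scramble replicate 1 or 2, with adjusted p between 0.0647 and 0.0873. For si-snaR-A#2 the lower value was called in 4 of 21 settings: without si-snaR-A#3 replicate 3 (adjusted p = 0.0127), in fits of 2 groups (0.00495), by edgeR's exact test (7.50e-05) and with a length trend removed (0.0124). For si-snaR-A#3 it ranged from -0.31 to 0.092 on leaving out 1 library.

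TNRC6C (chromosome 17, 77958703 to 78108822, plus strand) was at 36.4, 34.8 and 35.4 CPM with scramble and at 26.6, 28.9 and 29.6 CPM under si-snaR-A#1. It was at 37.6, 38.3 and 37.2 CPM under si-snaR-A#2 and at 44.3, 41.4 and 34.3 CPM under si-snaR-A#3. The si-snaR-A#1 libraries were below all others, and the si-snaR-A#2 libraries were slightly above scramble. The log2 fold change was -0.32 ± 0.08 (adjusted p = 0.00350) under si-snaR-A#1, 0.09 ± 0.08 (0.454) under si-snaR-A#2 and 0.17 ± 0.08 (0.106) under si-snaR-A#3. The last was 0.27 and called without si-snaR-A#3 replicate 3 (adjusted p = 0.00227), ranged from 0.093 to 0.27 on leaving out 1 library, and was called by DESeq2 (0.0468). Of its exon bases, 12.3% overlap the oppositely transcribed gene TMC6, which lay between 7.35 and 9.46 CPM and was at a log2 fold change of 0.03 ± 0.09 under si-snaR-A#1 (adjusted p = 0.795).

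The spread within si-snaR-A#3 was shared by several of these genes. Replicate 1 was the highest and replicate 3 the lowest of its libraries for AGO1, AGO2, AGO3, AGO4, DICER1, TNRC6B and TNRC6C. Of the 9 members with a row, 6 have a canonical transcript of 10000 bases or more: AGO1, AGO2, AGO3, DICER1, TNRC6B and TNRC6C. The other 737 gene rows of that length, tested or not, held 5.46%, 4.98% and 4.31% of the counts in the 3 si-snaR-A#3 libraries. Their share was 5.47%, 4.94% and 4.77% with scramble. It was 5.16%, 5.16% and 5.75% under si-snaR-A#1, and 4.89%, 4.94% and 4.88% under si-snaR-A#2. The library with the lowest share, si-snaR-A#3 replicate 3, was the lowest of all for AGO2 and TNRC6B. The part of transcript length in the members' values was not tested as a cause. With a length trend removed from each library, an alternative chosen after seeing the data, the 7 members called under si-snaR-A#1 were still called. They were DICER1, AGO2, AGO3, AGO4, TNRC6B, TNRC6C and DROSHA. AGO1 was called in that setting as well (quasi-likelihood test, adjusted p = 0.0409).

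**Figure D4:**
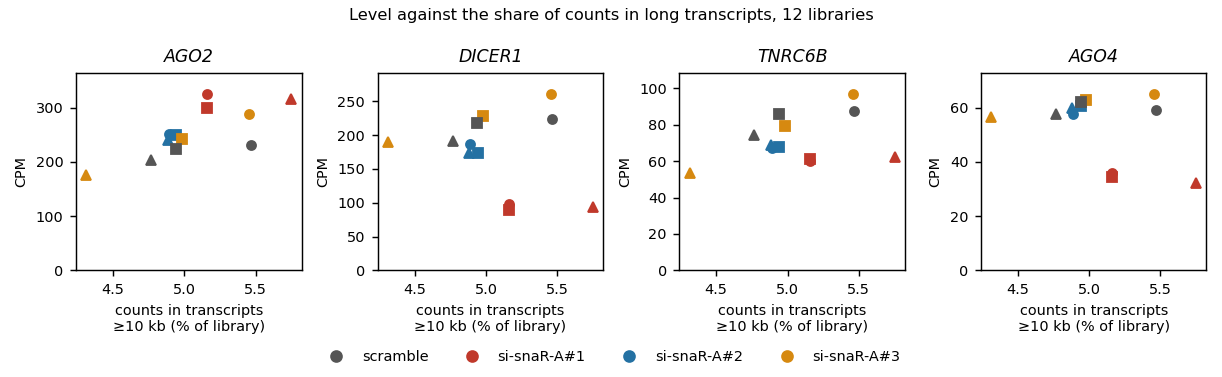
CPM (y axis, from 0) of AGO2, DICER1, TNRC6B and AGO4 against the percent of a library's counts in transcripts of 10000 bases or more (x axis), members left out, with colour for the group and circle, square and triangle for replicates 1, 2 and 3. Libraries of si-snaR-A#3 spread from 4.31% to 5.46%, with TNRC6B from 53.8 to 96.8 CPM, while the si-snaR-A#1 libraries of DICER1 and AGO4 lie low at 5.16% to 5.75%.

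Within scramble libraries, the order of levels per kb of canonical transcript was DICER1 (20.3 ± 1.7 CPM per kb, SD, n = 3), DROSHA (19.3 ± 2.1), AGO2 (15.0 ± 1.0), DGCR8 (12.7 ± 1.6), AGO4 (8.21 ± 0.31), AGO1 (6.01 ± 0.76), TNRC6B (4.52 ± 0.38), TNRC6C (3.42 ± 0.08) and AGO3 (3.19 ± 0.30). The libraries of DICER1 and DROSHA overlapped, as did those of AGO2 and DGCR8 and those of TNRC6C and AGO3. With the length of all annotated exons instead, DICER1 was at 9.52 CPM per kb, below AGO2 (13.8) and DROSHA (13.4). AGO2 then came before DROSHA, and AGO4 (8.05) before DGCR8 (7.83), with overlapping libraries in both pairs. The places of these genes thus depend on which transcript the cells use. Under si-snaR-A#1 the order by canonical length was DROSHA (23.2 ± 1.5), AGO2 (21.5 ± 0.9), DGCR8 (15.9 ± 4.2) and then DICER1 (8.98 ± 0.44). AGO4 was at 4.71 ± 0.26, under AGO1 at 6.93 ± 0.36. The AGO2 libraries (20.5 to 22.2) overlapped those of DROSHA (from 21.9) and DGCR8 (up to 20.6). Over all annotated exons AGO2 (19.8) came before DROSHA (16.2), and DICER1 (4.21) came after AGO1 (6.77).

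Averaged over the 3 siRNAs, 32.2% of all genes were called, 15.6% higher and 16.6% lower, and 4 of 9 members were called. With the filter at a mean of 1 CPM, 7041 of 14538 genes were called in this average. AGO1 was higher by 0.30 ± 0.09 (adjusted p = 0.0195) and DROSHA by 0.21 ± 0.07 (0.0294). AGO4 was lower, at -0.25 ± 0.04 (0.000805), and so was DICER1, at -0.44 ± 0.08 (0.000677). The averages of AGO4 and DICER1 joined a large change under si-snaR-A#1 to small ones with the others. The call of AGO1 was lost without scramble replicate 2 or 3 (adjusted p = 0.101 and 0.0951). DROSHA was no longer called under upper quartile scaling (adjusted p = 0.0510), on leaving out si-snaR-A#2 replicate 1 (0.0505), or on leaving out scramble replicate 2, which brought it to 0.13 (0.187). AGO2 and TNRC6B, not called in the average, were each called in 4 of 19 settings.

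Between siRNAs, si-snaR-A#1 stood apart. Against si-snaR-A#2, 46.7% of all genes were called, 23.7% higher and 23% lower under si-snaR-A#1, and 6 members were called, AGO2 and DGCR8 higher and AGO3, AGO4, DICER1 and TNRC6C lower. Against si-snaR-A#3, 48.6% were called, 23.8% higher and 24.8% lower, and the same 6 members were called in the same directions. With the filter at a mean of 1 CPM, nearer the levels of the members, 9218 of 14538 genes were called against si-snaR-A#2. Against si-snaR-A#3 it was 9406 of 14538. Both contrasts use the same si-snaR-A#1 libraries.

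Other genes of the pathway were followed in 8 lists of 64 symbols, of which 60 were tested. Under si-snaR-A#1, 39 of the 60 were called, 14 higher and 25 lower. For si-snaR-A#2 the count was 19 (12 higher, 7 lower). For si-snaR-A#3 it was 30 (22 higher, 8 lower). All-gene percentages for these contrasts, and the larger shares called with a filter at 1 CPM, are those given above. Of all genes tested, 12.1% were called lower under si-snaR-A#2 and 13% under si-snaR-A#3.

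The Microprocessor partners, RNA-binding proteins that assist DROSHA or guide primary transcripts to it, had 2, 3 and 4 of 7 called under si-snaR-A#1, #2 and #3, with medians of -0.08, -0.09 and -0.12. ERH, a small dimeric protein that binds DGCR8, was at 187.7 ± 6.2 CPM with scramble and 128.8 ± 2.1 CPM under si-snaR-A#2, a change of -0.54 on the log2 scale, and was at -0.08 and -0.12 with the others, where it was not called. Among the 5 export and dicing partners, 3, 1 and 1 were called. PRKRA, a double-stranded RNA-binding partner of DICER1, fell by 0.36 on the log2 scale under si-snaR-A#1, from 63.9 ± 1.5 to 49.9 ± 2.2 CPM. TARBP2, the other such partner, was called lower under si-snaR-A#1 (-0.14) as well as si-snaR-A#2 (-0.17).

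The chaperones that open Argonaute for loading moved in 1 direction under si-snaR-A#3, where 6 of 6 were called higher, with a median log2 fold change of 0.31, against -0.03 over all genes. The calls under si-snaR-A#1 were 3 higher and 2 lower. Those of si-snaR-A#2 were 3 higher and 1 lower. HSP90AA1, an inducible form of the chaperone HSP90, was at 2556 ± 96 CPM with scramble and 3460 ± 88 CPM under si-snaR-A#3 and was called higher with every siRNA (0.16, 0.20 and 0.44). FKBP4, an HSP90 co-chaperone, was also called higher with each (0.37, 0.14 and 0.26). HSP90AB1, the constitutive form, was called higher under si-snaR-A#1 (0.34), higher under si-snaR-A#3 (0.28) and lower under si-snaR-A#2 (-0.17).

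Of 11 cofactors of the RNA-induced silencing complex, the number called was 7 for si-snaR-A#1 (of which 6 lower), 2 for si-snaR-A#2 (none lower) and 6 for si-snaR-A#3 (of which 1 lower). ZSWIM8, a ubiquitin ligase receptor known for Argonaute turnover on targets that trigger microRNA decay, was at 43.6 ± 5.3 CPM with scramble, 28.6 ± 4.1 CPM under si-snaR-A#1 and 30.6 ± 1.1 CPM under si-snaR-A#3, with log2 fold changes of -0.61 and -0.51. Under si-snaR-A#2 it was at -0.27 and not called. SND1, a nuclease with Tudor and staphylococcal nuclease domains, was called higher with each siRNA (0.26, 0.27 and 0.34). FMR1, an RNA-binding protein that associates with Argonaute, was called lower under si-snaR-A#1 (-0.60) and higher under si-snaR-A#3 (0.19).

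Of 7 tested genes for small RNA tailing and decay, si-snaR-A#1 gave 5 calls, 4 of them lower. The count was 2 for si-snaR-A#3, in opposite directions. For si-snaR-A#2 it was 0 by the quasi-likelihood test of edgeR, with 2 genes (LIN28B and TENT4B) at an unadjusted p under 0.05, and DESeq2 and the exact test of edgeR each called these 2. All values of that siRNA lay between 0.01 and 0.13 on the log2 scale. LIN28B, which blocks processing of let-7 precursors, was at 219.7 ± 7.2 CPM with scramble, 135.0 ± 6.9 CPM under si-snaR-A#1 and 142.6 ± 5.9 CPM under si-snaR-A#3, log2 fold changes of -0.70 and -0.62. Under si-snaR-A#2 it was at 0.13 and not called. TUT7, a terminal uridylyltransferase that tails let-7 precursors, was called lower under si-snaR-A#1 (-0.55), and DIS3L2, the exonuclease that degrades the tailed RNA, was called higher (0.35).

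Downstream of TNRC6, 10 of 13 deadenylation genes were called under si-snaR-A#1 (3 higher, 7 lower), 6 under si-snaR-A#2 and 7 under si-snaR-A#3. PABPC1, the main cytoplasmic poly(A)-binding protein and a TNRC6 partner, went from 1432 ± 50 CPM with scramble to 644.7 ± 36.3 CPM under si-snaR-A#1, a change of -1.15 on the log2 scale. It was at 0.04 with each of the other siRNAs, where it was not called. CNOT11 (-0.89 under si-snaR-A#1) and CNOT2 (-0.45, -0.18 and -0.18) are subunits of the CCR4-NOT deadenylase. PABPC1, like the HSP90 genes, has processed copies in the genome that can share reads with it, so these levels are less certain.

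Of 9 tested decapping and P body genes, si-snaR-A#1 gave 6 calls, 1 of them lower. The counts were 3 for si-snaR-A#2, of which 1 was lower, and 4 for si-snaR-A#3, of which 0 were lower. The gene that fell was DDX6, the helicase that links CCR4-NOT to decapping, from 285.6 ± 6.1 to 139.4 ± 6.3 CPM under si-snaR-A#1, a change of -1.03 on the log2 scale. EIF4ENIF1, which carries translation factor eIF4E into P bodies, was called higher (0.88) by the same siRNA. EDC3, a decapping enhancer, was called higher with every siRNA (0.42, 0.36 and 0.47). Of the 2 PIWI genes tested, PIWIL4 was called lower under si-snaR-A#1 at under 1 CPM.

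**Figure D5:**
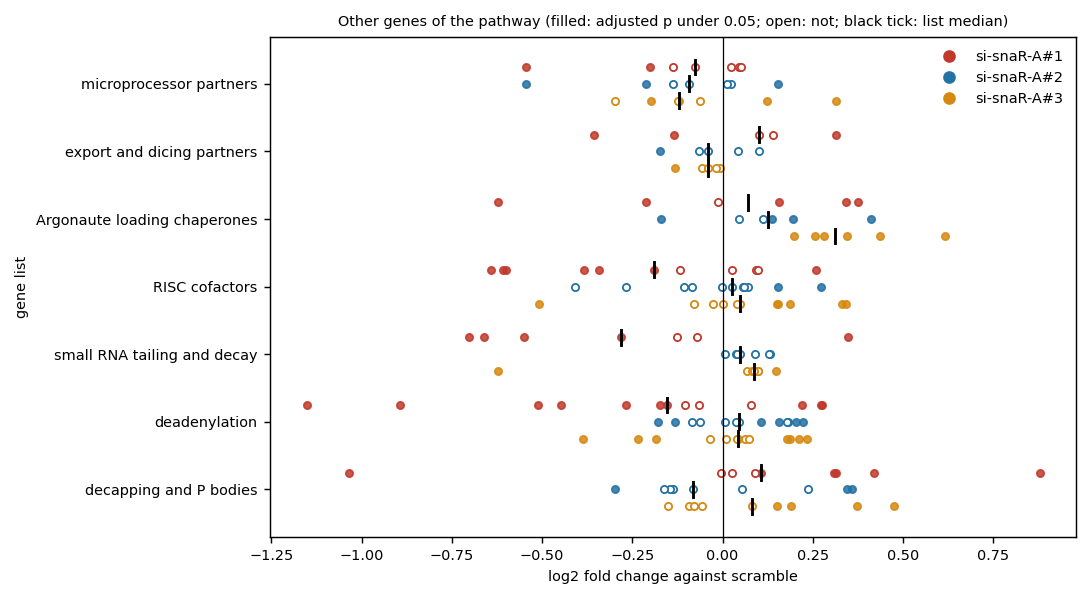
Log2 fold change against scramble (x axis) of each tested gene of 7 pathway lists (y axis) with each siRNA; filled points passed an adjusted p of 0.05 and black ticks are list medians. Under si-snaR-A#3 the 6 loading chaperones all lie above 0, with a median of 0.31, and under si-snaR-A#1 PABPC1 (-1.15) and DDX6 (-1.03) lie farthest to the left.

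The transcripts that host microRNAs give a view of what enters the pathway, though the host is not the microRNA. Of 84 annotated genes named as microRNA hosts, 39 were tested, and si-snaR-A#1 gave 13 calls, 9 of them higher. The counts were 4 for si-snaR-A#2, of which 1 was higher, and 5 for si-snaR-A#3, of which 1 was higher. Of all genes tested, 45.2%, 25.8% and 29.4% were called under si-snaR-A#1, #2 and #3, and 21.9%, 13.7% and 16.5% were higher. With each siRNA the hosts were thus called, in either direction, less often than all genes. Several tested hosts lay far under 1 CPM, such as MIR31HG (0.092 CPM with scramble) and MIR7-3HG (0.142 CPM). The hosts were not compared with genes at like levels, so this is not read as a trait of hosts. The 3 named by the rule on size had low levels, with means of 1.43 CPM for MIR210HG, 5.32 CPM for MIR4453HG and 2.92 CPM for MIR9-1HG. MIR210HG was called lower under si-snaR-A#1 (-0.84) as well as si-snaR-A#3 (-0.61). MIR4453HG was called higher under si-snaR-A#1 (1.62) and lower under si-snaR-A#3 (-0.44), and MIR9-1HG was called lower under si-snaR-A#2 (-0.63). Their mature products in RefSeq (GRCh38) are given to show which microRNAs these hosts carry, with the seed in capitals: chr11:568112-568133 and chr11:568150-568171 on the minus strand, chr4:152536432-152536451 on the plus strand, and chr1:156420392-156420414 and chr1:156420354-156420375 on the minus strand.
hsa-miR-210-3p: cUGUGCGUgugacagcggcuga
hsa-miR-210-5p: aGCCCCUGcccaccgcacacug
hsa-miR-4453: gAGCUUGGucuguagcgguu
hsa-miR-9-5p: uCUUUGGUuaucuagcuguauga
hsa-miR-9-3p: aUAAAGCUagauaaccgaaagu
None of these seeds is shared within the set or with the microRNAs of DGCR8.

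For the 3 members with the smallest p over the 4 groups, the genes with the most similar profile over the 12 libraries were sought among 14528 genes, by the root mean square difference of centred log2 CPM. AGO4 was closest to SLC30A6 (0.0435), NRXN3 (0.0502) and PCYOX1 (0.0597), where the median gene was at 0.383. SLC30A6, a zinc transporter, was at 48.9, 27.2, 47.2 and 49.4 CPM in the 4 groups, beginning with scramble and then by siRNA number. DICER1 was closest to PARP9 (0.0937), EFR3A (0.107) and IPO7 (0.112), with a median of 0.530. IPO7, a nuclear import receptor, was at 664.7, 316.4, 628.2 and 736.3 CPM in the same order. Genes close to AGO3 included PRR11 (0.0572) and LINC03049 (0.0695), with a median of 0.275.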

How the data were processed

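HEK293T RNA was depleted of rRNA, enriched for poly(A)+ RNA and sequenced from stranded libraries. The authors trimmed reads with TrimGalore, assigned them with Salmon and deposited estimated counts per Ensembl gene, in hg38 per the labels. Of positive values, 0% were exactly whole, while 77.8% of those between 0.5 and 1.5 lay within 0.05 of 1, so the counts may have been rescaled by transcript length. The transcriptome release, the gene-level step and the use of strand are not given in the sources used here. Values were rounded to whole counts before every test. Genes kept by filterByExpr on the 4 groups (21999 of 63541) were normalised with TMM (factors 0.956 to 1.089) and fitted with 1 coefficient per group over 12 libraries by the quasi-likelihood test of edgeR 4.0.16 (R 4.3.3). P-values were adjusted by Benjamini-Hochberg over all genes tested. SE is the absolute log2 fold change over the square root of F. Intervals of 95% use its t quantile. Symbols and lengths came from GENCODE release 44. The script was tested on simulated data. No batch is labelled.

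Members and lists were chosen with earlier results of these data known. In each list the text names, by rule, up to 3 genes with the largest called change in the mean of the siRNAs at 1 CPM or more. Alternatives covered scaling, filter, test, replicate block, transcript length and leaving out each library. DESeq2 1.42.0 was one of them. Among the genes with profiles similar to a member, 1 is not reported here.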

Additional observations from a re-analysis of the deposited data

Results flagged for a closer look

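The effects of the 3 siRNAs on the members differed from one another in 13 tested pairs of siRNA and gene, by the contrast between the siRNAs (adjusted p under 0.05, edgeR's quasi-likelihood test). In si-snaR-A#1 against si-snaR-A#2 the log2 differences were -0.93 for DICER1, -0.80 for AGO4, -0.43 for AGO3, -0.41 for TNRC6C, 0.34 for AGO2 and 0.60 for DGCR8. In si-snaR-A#1 against si-snaR-A#3 they were -1.28 for DICER1, -0.85 for AGO4, -0.60 for AGO3, -0.50 for TNRC6C, 0.41 for AGO2 and 0.64 for DGCR8. In si-snaR-A#2 against si-snaR-A#3 the difference was -0.34, for DICER1. The siRNAs are directed at the same RNA. The values of AGO2 against si-snaR-A#2 and of DICER1 of si-snaR-A#2 against si-snaR-A#3 lost the call in 10 and 5 of 21 alternative settings. DGCR8 differed by 0.34 and 0.40 without si-snaR-A#1 replicate 3, which was at 93.0 CPM.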

How the results depend on the processing

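Of 27 called values of members over the 7 contrasts, 19 were called in every alternative run. They include DICER1, AGO4, AGO3, TNRC6C and AGO2 with si-snaR-A#1 and AGO1 with si-snaR-A#2. In 34 instances a value changed sign, and in 0 of them was the value called before or after. The count of members called moved most with si-snaR-A#2 against scramble: from 1 to 2 under upper quartile scaling, no filter, the replicate block or DESeq2, to 3 with the length trend removed, and to 5 with only the 2 groups fitted or by edgeR's exact test. Leaving out 1 library gave 1 to 3. With si-snaR-A#3 the count went from 2 to 4 without the filter and by DESeq2, and from 1 (without its replicate 1) to 5 (without its replicate 3). For si-snaR-A#2 against si-snaR-A#3 it went from 1 to 0 in the fit of 2 groups, to 2 by the exact test or with length removed, and from 0 to 3 on leaving out a library. In the mean of the siRNAs it went from 4 to between 2 (without scramble replicate 2) and 6. Of 99 other pathway genes and host transcripts, leaving out a library gave 14 to 29 calls with si-snaR-A#2 (23 in full), 22 to 38 with si-snaR-A#3 (35 in full) and 19 to 40 in the mean (32 in full).

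Signs changed as follows, in log2 units. AGO4 with si-snaR-A#2 was 0.017 under RLE scaling and by DESeq2, 0.0041 with 2 groups and 0.0042 by the exact test, and -0.018 to 0.025 on leaving out a library. AGO4 with si-snaR-A#3 was -0.0099 under upper quartile scaling and -0.019 with length removed. The mean for AGO3 was -0.029 under upper quartile scaling, -0.0016 with a filter at 1 CPM, -0.062 with length removed, and -0.064 to 0.045 on leaving out a library. For si-snaR-A#1 against si-snaR-A#3, the same 3 settings gave 0.022, 0.016 and 0.0030 for AGO1 and 0.036, 0.030 and 0.029 for DROSHA, and leaving out a library gave -0.16 to 0.080 and -0.084 to 0.034. On leaving out a library, the contrast of si-snaR-A#3 with scramble ranged from -0.068 to 0.27 for AGO2, from -0.011 to 0.21 for DICER1 and from -0.31 to 0.092 for TNRC6B. The mean ranged from -0.17 to 0.013 for DGCR8 and from -0.048 to 0.012 for TNRC6C. The difference of si-snaR-A#2 against si-snaR-A#3 ranged from -0.097 to 0.24 for AGO2, from -0.0026 to 0.11 for DGCR8 and from -0.37 to 0.030 for TNRC6B. The cause of these changes was not tested. Levels per kb over all annotated exons were 13.8 for AGO2, 9.52 for DICER1, 13.4 for DROSHA, 7.83 for DGCR8, 4.14 for TNRC6B and 3.05 for TNRC6C.

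Samples with the same replicate number did not deviate together more than others (correlations of -0.26 to 0.19 over 18 pairs, and -0.24 to 0.38 for other numbers). With 3 replicates per group and such wide ranges, this does not exclude that the numbers pair samples. The replicate block gave 2 members called with si-snaR-A#2, DICER1 being added.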
